A study of Mus musculus with 12 samples.

Results

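The genes of plasma cells and of immunoglobulin A (IgA) transport were examined in the ileum of mice that lack FIRE, an enhancer in an intron of *Csf1r*, the gene of the macrophage growth factor receptor. Their 9 members are *Jchain*, *Pigr*, *Xbp1*, *Sdc1*, *Mzb1*, *Prdm1*, *Irf4*, *Derl3* and *Tnfrsf17*, taken by exact symbol from 18820 genes with a transcript cluster of their own, and each had 1 cluster. No member differed between FIRE -/- and FIRE +/+ ileum by the test used. The 9 genes did not share one pattern over the arrays. *Mzb1* and *Irf4* were highest in the 2 ileum pieces with the most B cell signal, *Jchain* was lowest in one of these pieces and highest in the other, and *Pigr*, *Xbp1* and *Sdc1* ranged over 0.45 to 0.47 on the log2 scale.

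FIRE -/- mice carry a CRISPR deletion of the enhancer, bred from 1 founder male through C57BL/6J crosses and interbreeding. FIRE +/+ mice carry the intact enhancer. All were C57BL/6J/CBA animals of 6 weeks, perfused with saline and otherwise untreated. Each genotype gave 3 arrays of ileum, described as pieces with a Peyer's patch (a lymphoid follicle cluster of the gut wall), and 3 arrays of hippocampus. The FIRE -/- ileum arrays are called F09 (female), G09 (male) and H09 (female) after their codes, and the FIRE +/+ ileum arrays C09 (male), D09 (male) and E09 (female). The labels do not say whether 1 mouse gave both tissues. Values are log2 signals after robust multi-array averaging (RMA), so a difference of 1 is a doubling of signal, and levels are set side by side only within a gene.

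Plasma cells are the antibody-secreting end stage of the B cell lineage, and those of the gut wall make mostly IgA. The J chain joins IgA monomers into dimers, and the polymeric immunoglobulin receptor, encoded by *Pigr* in epithelial cells, carries the dimers across the epithelium into the lumen. The transcription factors IRF4 and BLIMP1 (*Prdm1*) drive the plasma cell state, and XBP1 enlarges the endoplasmic reticulum for antibody secretion. *Mzb1* and *Derl3* encode proteins of that compartment, a chaperone-like folding factor and a component of the degradation of misfolded proteins. *Sdc1* encodes the surface proteoglycan CD138, which plasma cells and epithelial cells both carry, and *Tnfrsf17* encodes BCMA, a survival receptor of plasma cells. *Xbp1* is also expressed by epithelial cells of the gut.

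The promoters of *Derl3*, *Jchain* and *Pigr* are shown because *Derl3* held the only match among 4 motifs of the plasma cell programme, while *Pigr* and *Jchain* encode the partners of IgA transport. Sequences are the 250 bases before the RefSeq start in GRCm38.p6, in the direction of the gene, and 8 of the 9 members were available to print. *Derl3* lies on the plus strand at chr10:75893148-75893397, *Jchain* on the minus strand at chr5:88527898-88528147 and *Pigr* on the plus strand at chr1:130826434-130826683. Capitals mark the 2 boxes of the ER stress element.
Derl3: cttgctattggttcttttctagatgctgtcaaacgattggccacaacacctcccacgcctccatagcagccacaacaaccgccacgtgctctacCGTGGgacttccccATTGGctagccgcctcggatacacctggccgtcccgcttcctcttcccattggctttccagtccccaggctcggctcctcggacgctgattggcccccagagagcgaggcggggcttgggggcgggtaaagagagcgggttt
Jchain: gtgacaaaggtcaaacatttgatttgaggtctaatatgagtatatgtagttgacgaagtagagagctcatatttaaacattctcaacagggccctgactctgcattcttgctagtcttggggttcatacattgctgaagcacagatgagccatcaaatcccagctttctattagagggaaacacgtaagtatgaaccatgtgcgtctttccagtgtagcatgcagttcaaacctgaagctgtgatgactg
Pigr: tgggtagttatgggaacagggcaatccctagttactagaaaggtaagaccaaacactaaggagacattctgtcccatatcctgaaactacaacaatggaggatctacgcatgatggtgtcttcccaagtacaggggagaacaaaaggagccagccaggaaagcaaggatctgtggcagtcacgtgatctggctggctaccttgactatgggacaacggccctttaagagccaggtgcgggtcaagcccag

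The ER stress element, CCAAT and CCACG separated by 9 bases and known as a site of XBP1 and ATF6, was found in *Derl3* on the reverse strand, from 156 to 138 bases before the start. Of 32851 promoters of the same length, 37 (0.113%) held it on either strand. The XBP1 core CCACGTCA (0.563% of promoters), the ETS-IRF composite GGAANNGAA (6.99%) and the BLIMP1 core AGTGAAAG (1.09%) were found in none of the 8 member promoters on either strand. No overlap between motifs arose, since there was 1 match. A match describes letters in this window and is not a measured site.

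The arrays were first checked against their labels. *Csf1r*, the gene whose enhancer was deleted, was at 3.58 to 3.69 on FIRE -/- and 8.15 to 8.34 on FIRE +/+ hippocampus arrays. In the ileum it was at 6.44 to 7.53 in FIRE -/- and 7.39 to 8.17 in FIRE +/+ tissue (log2 fold change -0.71, limma adjusted p = 0.9995). With 1 array left out this difference ranged from -1.01 (without G09) to -0.46 (without F09 or D09). It was -0.20 without both F09 and D09. Ileum arrays correlated pairwise with r of 0.981 to 0.992 over clusters. The sex-linked genes fitted the labelled sex on 6 of 6 ileum arrays and 5 of 6 hippocampus arrays. All 15 epithelial genes were called higher in ileum and all 7 hippocampus genes lower. The ileum pieces differed in lymphoid tissue. *Ms4a1*, which encodes the B cell protein CD20, was at 7.68 on F09, 2.32 on G09 and 2.14 on H09 in FIRE -/- ileum, against 2.68 on C09, 7.66 on D09 and 2.50 on E09 in FIRE +/+ ileum. So 1 array of each genotype stood about 5 log2 units above the others, and the mean of 17 B cell genes was 7.59 on F09 and 7.47 on D09 but 4.11 to 4.44 on the other 4. Hippocampus arrays had a mean of 3.27 to 3.59 for these genes, and *Ms4a1* there was at 1.85 to 2.26. On 4 of the 6 ileum arrays *Ms4a1*, the B cell marker used here, was thus close to its hippocampus level. The mean of the 17 B cell genes on these arrays was above its hippocampus range.

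The first comparison asked whether the loss of FIRE changed the level of each member in the ileum. Of 21218 clusters tested with limma, 0 (0%) were called in either direction at an adjusted p under 0.05, with 327 lower and 393 higher at an unadjusted p under 0.05, and an analysis of variance of each cluster, without moderation, also gave 0. Accordingly 0 of the 9 members were called, and each had an adjusted p of 0.9995 by limma. The arrays of the genotypes overlapped for all 9 members, while they were separate for 8.04% of all clusters. With 3 arrays against 3, no exact permutation test of a single gene can give a p under 0.1. The limma p-values set each difference against the spread between these arrays, moderated over all clusters. In whole tissue, fewer cells of a type and less RNA per cell cannot be told apart.

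*Jchain* was at 8.04 on F09, 9.23 on G09 and 8.86 on H09 in FIRE -/- ileum, against 8.18 on C09, 9.30 on D09 and 8.68 on E09 in FIRE +/+ ileum. High and low arrays occurred in both genotypes, and the group means were nearly the same at 8.71 ± 0.61 in FIRE -/- and 8.72 ± 0.56 in FIRE +/+ ileum (SD, n = 3 each). The genotype difference was -0.0082 on the log2 scale (standard error 0.37, 95% confidence interval -0.89 to 0.87). Without the lymphoid-rich arrays F09 and D09 it was 0.62 (standard error 0.23, 95% confidence interval 0.036 to 1.20, limma adjusted p = 0.913). The 2 remaining FIRE -/- arrays were at 9.23 and 8.86, against 8.18 and 8.68 on the FIRE +/+ arrays.

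*Pigr* was at 10.88, 11.34 and 11.20 on F09, G09 and H09 in FIRE -/- ileum, against 11.22, 11.21 and 11.27 on C09, D09 and E09 in FIRE +/+ ileum. The 3 FIRE +/+ arrays lay within 0.057 of each other, F09 was below all of them and G09 above all of them. Its genotype difference was -0.091 (95% confidence interval -0.42 to 0.23). The mean of the 15 epithelial genes ranged from 10.78 to 10.89 in FIRE -/- and from 10.81 to 10.92 in FIRE +/+ ileum.

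Among the transcription factors, *Prdm1* had the largest genotype difference of the 9 members. It was at 5.68, 6.08 and 6.26 on F09, G09 and H09 in FIRE -/- ileum, against 5.38, 5.60 and 5.78 on C09, D09 and E09 in FIRE +/+ ileum. G09 and H09 were above every FIRE +/+ array and F09 lay among them. The log2 fold change of 0.42 had a 95% confidence interval of -0.0084 to 0.84. Its unadjusted limma p was 0.0536, which was 0.9995 after adjustment. Without F09 and D09 the difference was 0.58 (0.11 to 1.05) and was not called. *Xbp1* was at 9.61, 9.69 and 9.67 in FIRE -/- ileum, against 9.42, 9.74 and 9.89 in FIRE +/+ ileum, in the same order of arrays. The FIRE -/- values fell inside the range of the FIRE +/+ values, and the difference was -0.024 (95% confidence interval -0.36 to 0.31).

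*Irf4* was at 5.59, 4.97 and 4.19 on F09, G09 and H09 in FIRE -/- ileum, against 4.06, 5.60 and 4.59 on C09, D09 and E09 in FIRE +/+ ileum. Its highest arrays were F09 and D09, at nearly one level. The difference was 0.17 (95% confidence interval -0.93 to 1.27). *Mzb1* was at 6.59, 5.04 and 4.64 on the same FIRE -/- arrays, against 3.70, 7.23 and 4.36 on the FIRE +/+ arrays. D09 and F09 were again the highest, and its range of 3.53 over the 6 arrays was the widest of the members. Its log2 fold change of 0.33 had the widest interval, -1.88 to 2.55. It was 1.40 without D09 and -0.36 without C09.

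*Derl3* was at 5.54, 5.54 and 5.12 on F09, G09 and H09 in FIRE -/- ileum, against 4.76, 5.83 and 4.84 on C09, D09 and E09 in FIRE +/+ ileum. All FIRE -/- arrays lay between the lower FIRE +/+ arrays and D09. The difference was 0.25 (95% confidence interval -0.44 to 0.95). It was 0.062 without C09, 0.60 without D09 (95% confidence interval 0.19 to 1.01) and 0.53 without F09 and D09 (0.070 to 0.99), and was called in none of these. Of the surface markers, *Sdc1* was at 8.86, 8.86 and 9.20 in FIRE -/- ileum, against 9.09, 9.25 and 9.31 in FIRE +/+ ileum, so that F09 and G09 were below all FIRE +/+ arrays and H09 among them. Its difference was -0.25 (95% confidence interval -0.56 to 0.073). *Tnfrsf17* was at 3.55, 4.36 and 3.62 in FIRE -/- ileum, against 3.22, 4.20 and 4.12 in FIRE +/+ ileum, with group means of 3.84 and 3.85. Its difference was -0.0045 (95% confidence interval -0.76 to 0.76).

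**Figure D1:**
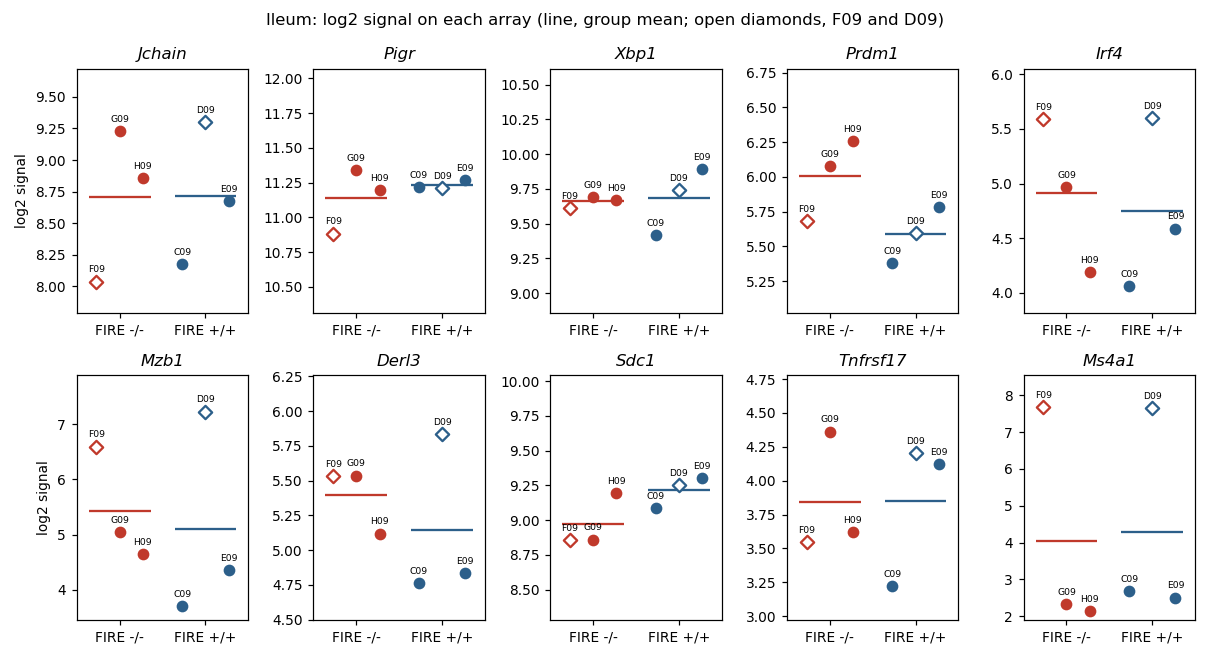
Log2 signal (y axis, own range in each panel) of the 9 genes and of *Ms4a1* on each ileum array, FIRE -/- in red at the left and FIRE +/+ in blue at the right; lines are group means and open diamonds are F09 and D09. *Mzb1*, *Irf4* and *Ms4a1* are highest on F09 and D09, while *Jchain* is lowest on F09 (8.04) and highest on D09 (9.30).

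**Figure D2:**
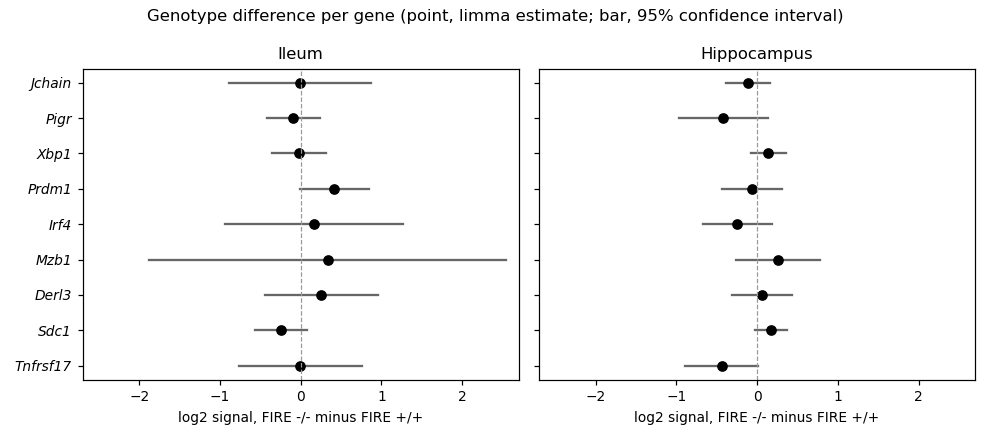
Genotype difference in log2 signal, FIRE -/- minus FIRE +/+ (x axis), for each member in ileum (left) and hippocampus (right); points are limma estimates and bars 95% confidence intervals. Every interval includes 0, and the widest is that of *Mzb1* in ileum, -1.88 to 2.55.

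The second comparison followed the members with the lymphoid content of the pieces. The 6 arrays fell into separate clusters for *Ms4a1*, with 2 high and 4 low, so no correlation over arrays was computed. Instead F09 was set against the mean of G09 and H09, and D09 against the mean of C09 and E09, as a description within each genotype. *Ms4a1* was higher by 5.46 on F09 and by 5.07 on D09. *Mzb1* was higher by 1.75 on F09 and by 3.20 on D09, and *Irf4* by 1.01 and 1.27. These 2 of 9 members were more than 1 above on both arrays, against 0.933% of all clusters. MZB1 is also known from marginal zone B cells and IRF4 from activated B cells.

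*Derl3* was higher by 1.03 on D09 but by 0.21 on F09, where G09 was as high. *Jchain* differed in sign, at -1.01 on F09 and 0.87 on D09, and so did *Tnfrsf17*, at -0.44 and 0.53. *Prdm1* was at -0.48 on F09 and 0.015 on D09. *Pigr*, *Sdc1* and *Xbp1* lay between -0.38 and 0.084 on both. Thus 7 of 9 members did not share the step of more than 1 that *Ms4a1* showed on both arrays. With the level of *Ms4a1* as a covariate in the limma fit, none of the members was called between genotypes. The genotype difference was then 0.44 for *Mzb1*, 0.22 for *Irf4*, 0.28 for *Derl3*, 0.41 for *Prdm1* and -0.013 for *Jchain*.

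**Figure D3:**
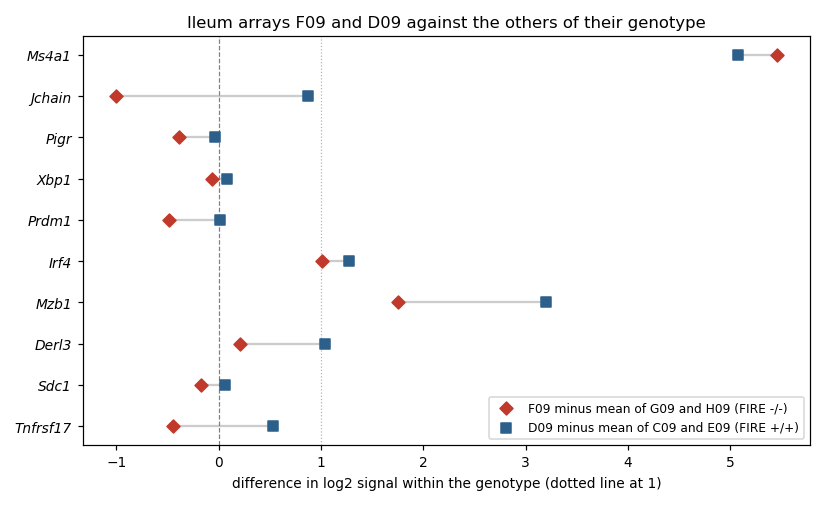
Difference in log2 signal (x axis) between the array rich in B cell signal and the mean of the other 2 arrays of its genotype, F09 as red diamonds and D09 as blue squares, for *Ms4a1* and the 9 members. *Mzb1* (1.75 and 3.20) and *Irf4* (1.01 and 1.27) lie right of the dotted line at 1 on both arrays, and *Jchain* lies on opposite sides of 0.

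Other plasma cell genes also differed from each other in this respect. Of 21 further plasma cell genes with a cluster, 6 were more than 1 above on both F09 and D09. They were *Pou2af1*, a B cell coactivator, with 2.76 and 3.28, *Cxcr4*, a chemokine receptor, with 2.77 and 2.68, and *Tnfrsf13c*, the BAFF receptor, with 3.32 and 3.87. The others were *Slamf7* with 1.48 and 2.19, *Cd27* with 1.80 and 1.19, and *Tnfrsf13b* with 1.12 and 1.57. *Bhlha15*, which encodes the secretory cell factor MIST1, had -0.63 on F09 and 0.31 on D09. *Txndc5* and *Sec11c*, of the secretory machinery, lay within 0.087 of the mean of the other arrays on both. By comparison 15 of 17 B cell genes, 4 of 10 T cell genes and 0 of 15 epithelial genes were more than 1 above on both. Over all clusters the share was 0.933%. None of the 21 plasma cell genes was called between genotypes, and their median log2 fold change was 0.11, against -0.0099 over all clusters. The largest differences were 0.58 for *Pou2af1* (standard error 1.11), 0.39 for *Cd28* and 0.32 for *Itga4*.

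The immunoglobulin genes gave the product of these cells. *Igkc*, the kappa light chain constant region, was at 8.50, 9.002 and 8.88 on F09, G09 and H09 in FIRE -/- ileum, against 8.09, 9.48 and 8.86 on C09, D09 and E09 in FIRE +/+ ileum. As with *Jchain*, F09 was the lowest FIRE -/- array and D09 the highest FIRE +/+ array for *Igkc*. For the heavy chain genes *Ighm*, *Ighg3* and *Igha*, F09 was not the lowest FIRE -/- array. It was 0.62 above the mean of G09 and H09 for *Ighm* and 0.36 for *Ighg3*. D09 was 1.12 and 1.58 above the mean of C09 and E09 for these genes. The brightest of 3 *Igha* clusters, the IgA heavy chain, was at 7.86, 6.32 and 9.63 in FIRE -/- ileum, against 5.81, 9.85 and 6.31 in FIRE +/+ ileum. It was high on H09 and D09 and so followed neither *Jchain* nor *Ms4a1*. Its log2 fold change of 0.61 had a standard error of 1.20. *Igha* shares sequence with other immunoglobulin genes, and its dimmest cluster was highest on F09 (3.31) rather than on H09 (2.23) among FIRE -/- arrays. Both of these values were below the array medians of 4.29 to 4.46. Of 4 constant region genes with a cluster, 0 were called.

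Likeness of profile was measured as the root mean square difference of mean-centred log2 values over the 6 ileum arrays, for the 5 members whose range was over 1. It describes 6 points that share one RMA run. The nearest profiles to *Jchain* were those of *Lrrc25* (0.10), *C1qb* (0.11) and *Pde11a* (0.13). *C1qb*, a complement gene of macrophages, was at 8.17, 9.42 and 8.73 on F09, G09 and H09 in FIRE -/- ileum, against 8.21, 9.36 and 8.85 on C09, D09 and E09 in FIRE +/+ ileum, which is the order of *Jchain* within each genotype. The mean of 11 macrophage genes had that order as well. It was 6.24, 7.06 and 6.63 in FIRE -/- and 6.35, 7.04 and 6.66 in FIRE +/+ ileum. Among single genes, *Cx3cr1*, *C1qa* and *C1qc* also had it, while *Csf1r*, *Adgre1*, *Cd68*, *Mertk*, *Itgam*, *Siglec1* and *Timd4* did not. *Mertk* differed by 0.13 on F09 and by -0.17 on D09 from the mean of the other arrays of its genotype. The part of macrophage content in the *Jchain* level was not tested.

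For *Mzb1* the nearest were *Arhgdib* (0.17), *Rac2* (0.25) and *Tlr9* (0.26), and for *Irf4* they were *Vcam1* (0.11), *Il7r* (0.11) and *A630001G21Rik* (0.13). *Derl3* was nearest to *Cd96* (0.090), *Ctsw* (0.096) and *Nkg7* (0.10), genes known from cytotoxic lymphocytes. *Tnfrsf17* was nearest to *Ms4a4d* (0.086), *Dpep2* (0.091) and *Ccn2* (0.096). No member was among the 3 nearest clusters of another. Among all members, the smallest difference was that between *Xbp1* and *Sdc1* (0.17). Both ranged over less than 1, at 0.47 and 0.45, which keeps this measure small whatever the order of arrays. *Jchain* was 0.27 from *Tnfrsf17* and 1.22 from *Mzb1*, while it was 0.22 from *Igkc*.

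The genes of IgA induction and homing, and those of the unfolded protein response that XBP1 serves, were taken as lists. Of 19 induction and homing genes, 0 were called in ileum between genotypes (median log2 fold change 0.13). The lymphoid-follicle chemokine gene *Cxcl13* was at 10.34, 7.99 and 6.73 on F09, G09 and H09 in FIRE -/- ileum, against 6.50, 10.70 and 6.17 on C09, D09 and E09 in FIRE +/+ ileum, high on the arrays with high *Ms4a1*. *Ccl28*, an epithelial chemokine that draws IgA plasma cells, was at 7.42, 8.53 and 8.31 in FIRE -/- ileum, against 8.35, 8.48 and 8.49 in FIRE +/+ ileum. F09 was thus the lowest array for *Ccl28*, *Pigr* and *Jchain* alike. Of 27 unfolded protein response and secretory genes, 0 were called in ileum (median -0.025). Of these, 0 were more than 1 above on both F09 and D09, against 0.933% of all clusters. Their mean level was 8.69 to 8.86 in FIRE -/- and 8.67 to 8.81 in FIRE +/+ ileum. The largest difference was that of *Sec24d*, a coat protein of secretory vesicles, at 0.51 (standard error 0.20).

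The hippocampus, in which plasma cells and epithelium are not expected, gave the lower level for each cluster. All 9 members were called higher in ileum than in hippocampus in a limma fit of the 12 arrays, against 36.1% of all clusters called higher. For 6 members (*Pigr*, *Jchain*, *Prdm1*, *Mzb1*, *Irf4* and *Tnfrsf17*) every hippocampus array lay below the array medians of 4.29 to 4.46. The deposited values carry no detection calls, so these differences are of RMA signals and no fold of RNA is given. *Pigr* was higher by 8.20 on the log2 scale (limma adjusted p = 1.88e-13), with hippocampus arrays at 2.41 to 3.48. *Jchain* was higher by 5.97, with hippocampus arrays at 2.50 to 2.90, and *Sdc1* by 4.40, with hippocampus arrays at 4.56 to 4.85.

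*Prdm1* was higher by 2.21, *Mzb1* by 2.08 and *Irf4* by 2.04. *Xbp1* was higher by 0.996, with hippocampus arrays at 8.55 to 8.82, so that both tissues had a high signal of this gene. *Tnfrsf17* was higher by 0.86 and *Derl3* by 0.50 (limma adjusted p = 0.0292). The arrays of the tissues were separate, every ileum array above every hippocampus array, for 7 of 9 members, against 28.4% of all clusters. The exceptions were *Derl3*, with ileum arrays at 4.76 to 5.83 and hippocampus arrays at 4.50 to 5.13, and *Tnfrsf17*, with ileum arrays at 3.22 to 4.36 and hippocampus arrays at 2.56 to 3.52. For *Mzb1* the lowest ileum array, C09, was at 3.70 and the highest hippocampus array at 3.57. Without F09 and D09 the *Derl3* difference was 0.29 and no longer called (limma adjusted p = 0.0738), and it was not called without any of 6 single arrays either. Beside the 36.1% of all clusters called higher in ileum, these were 15 of 21 other plasma cell genes (2 lower), 15 of 19 induction and homing genes (0 lower) and 25 of 27 unfolded protein response genes (1 lower).

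**Figure D4:**
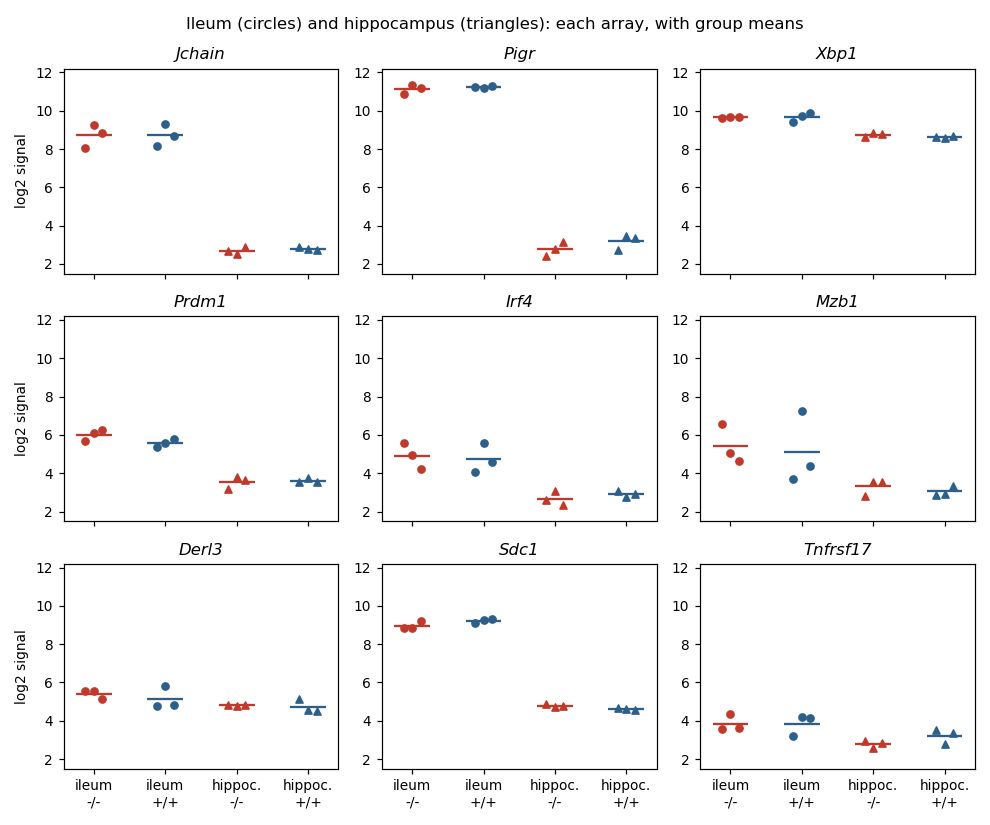
Log2 signal (y axis, one scale for all panels) of the 9 members on each array of ileum (circles) and hippocampus (triangles), FIRE -/- in red left of FIRE +/+ in blue within each tissue; lines are group means. *Pigr*, *Jchain* and *Sdc1* are far apart between tissues, while *Derl3* and *Tnfrsf17* overlap.

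In the hippocampus 95 clusters (0.448%) were called between genotypes, all lower in FIRE -/-. Of the 9 members, 0 were among them (limma adjusted p = 0.992 for each). With the code number as a block, 62 clusters were called lower and 3 higher, and none of the members. *Sdc1* was at 4.73 to 4.85 in FIRE -/- and 4.56 to 4.68 in FIRE +/+ hippocampus, the only member whose arrays did not overlap (1 of 9, against 9.66% of clusters), with a difference of 0.18. *Tnfrsf17* was at 2.56 to 2.92 in FIRE -/- and 2.77 to 3.52 in FIRE +/+ hippocampus, a difference of -0.44 (95% confidence interval -0.89 to 0.010). Of the induction and homing genes, 1 was called lower in FIRE -/- hippocampus. It was *Tgfb1*, whose product favours the switch to IgA, at -0.77 (limma adjusted p = 0.00526), and in the ileum its difference was 0.13. The paper, from its own analysis, reports *Tgfb1* as unaffected in this tissue. Of 11 macrophage genes, 8 were also called lower in FIRE -/- hippocampus.

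Whether a genotype difference depended on the tissue was tested as the difference in ileum minus that in hippocampus. Of all clusters 19 (0.0895%) were called, and 0 of the 9 members (limma adjusted p = 0.9997 for each). The largest values were 0.48 for *Prdm1*, 0.43 for *Tnfrsf17* and -0.42 for *Sdc1*. That of *Sdc1* had a 95% confidence interval of -0.76 to -0.080 and an unadjusted limma p of 0.0200, and its genotype differences were -0.25 in ileum and 0.18 in hippocampus.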

How the data were processed

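Total RNA of ileum with a Peyer's patch and of hippocampus was hybridised to Affymetrix Mouse Gene ST arrays, 3 per genotype and tissue. The deposited values are log2 signals, made by the authors by RMA (background correction, quantile normalization and summary over probes), with a version that the sources used here do not give. RMA compresses differences of dim clusters. No further scaling or filter was applied. Of the clusters, 21218 carried 1 symbol in the platform annotation and were tested, 1881 with several symbols and 12457 unnamed were left out. Array medians were 4.29 to 4.46, and the number of arrays limits the precision.

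Genotypes were compared within each tissue, and tissues and their interaction over all 12 arrays, with limma 3.58.1 in R 4.3.3 (lmFit, eBayes, Benjamini-Hochberg adjustment over all clusters, threshold 0.05), a procedure tested on simulated data. Single genes also had a two-sided exact permutation test. Members and lists were chosen with earlier results of these data known, so counts over them are descriptions. A gene with several clusters was represented by that of highest mean. Named are the members, *Ms4a1*, *Csf1r*, the called genes of each list or up to 3 with the largest genotype difference, up to 3 examples for tissues, and the 3 nearest profiles. *Cxcr4*, *Tnfrsf13c*, *Slamf7*, *Cd27*, *Tnfrsf13b*, *Sec11c*, *Mybl1*, *Cx3cr1*, *C1qc*, *Mertk*, *Adgre1*, *Cd68* and *Itgam* outside that rule were named after their values were seen. Promoters are from RefSeq (GRCm38.p6), a build the authors do not name.

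Alternatives were trended moderation, no moderation (a plain analysis of variance), repeated quantile normalization, inclusion of unnamed clusters, removal of dim clusters, sex or *Ms4a1* as covariate, array weights, a shared fit of both tissues, omission of F09 and D09 together or of single arrays, and blocks by the code number of hippocampus arrays.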

Additional observations from a re-analysis of the deposited data

Results flagged for a closer look

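The genotype difference of *Csf1r* in ileum minus that in hippocampus was 3.92 on the log2 scale (95% confidence interval 3.13 to 4.70, limma adjusted p = 0.000758). Its genotype difference was -0.71 in ileum and -4.63 in hippocampus. With 1 array left out the ileum value ranged from -1.01 (without G09) to -0.46 (without F09 or D09). It was -0.20 without both F09 and D09, and was negative in each alternative. None of the 9 members passed this test, while 4 of the 11 macrophage genes did, *Csf1r* among them.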

How the results depend on the processing

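No member was called between genotypes in either tissue under any alternative that tested it, and the count of clusters called in ileum was 0 in each. Signs of the ileum differences were less stable. *Jchain* (-0.0082) was 0.0055 after a second quantile normalization, 0.13 with sex, 0.11 with array weights and 0.62 without F09 and D09. *Tnfrsf17* (-0.0045) was 0.0047, 0.056 and 0.32 with the second normalization, with sex and without F09 and D09. Without both arrays *Pigr* was 0.026 and *Xbp1* 0.027. Leaving out 1 array, the differences ranged from -0.28 (without C09) to 0.33 (without F09) for *Jchain*, -0.19 (G09) to 0.037 (F09) for *Pigr*, -0.16 (C09) to 0.080 (E09) for *Xbp1*, -0.36 (without C09) to 1.40 (without D09) for *Mzb1*, -0.18 (C09) to 0.59 (D09) for *Irf4*, -0.32 (C09) to 0.17 (D09) for *Tnfrsf17* and -2.05 (without F09) to 1.46 (without D09) for *Ms4a1*. *Prdm1*, *Derl3* and *Sdc1* kept their sign in all alternatives, with ranges of 0.29 to 0.58, 0.062 (without C09) to 0.60 (without D09) and -0.36 to -0.19 over single omissions.

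In hippocampus *Jchain* was 0.10 and *Prdm1* 0.029 with the code number as a block, and *Derl3* -0.0013 with array weights. With 1 array left out *Derl3* ranged from -0.056 to 0.26 and *Prdm1* from -0.19 to 0.11. The clusters called numbered 25 without moderation, 59 with the filter and 41 in one fit of all arrays, against 95.

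Higher in ileum, the members stayed called under each alternative that tested them (removal of dim clusters left out *Mzb1*, *Irf4* and *Tnfrsf17*) other than *Derl3*, which was not called without moderation (limma adjusted p = 0.0661), without F09 and D09, or without B09, H07, F07, G07, F09 or G09 alone (0.33 to 0.60 over all 12 omissions). *Ms4a1* was called without F09 and D09, at 0.31. The tissue by genotype count of 19 was 8 without moderation, 34 with array weights, 65 without F09 and D09, and 12 (without B09 or E07) to 41 (without D09) with 1 array left out. That difference ranged with 1 array left out from -0.17 to 0.44 for *Jchain*, -0.63 to 1.14 for *Mzb1*, -0.0046 to 0.54 for *Derl3* and -2.28 to 1.23 for *Ms4a1*. Leaving out F09 and D09 in comparisons over all 12 arrays was chosen after seeing the data. Each member had 1 cluster, so a mean over clusters gave the same values. The causes were not tested. No paired analysis was possible because the labels give no replicate numbers.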

Other observations

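Germinal centre genes, which mark B cells maturing in the follicle before they become plasma cells, were measured by 7 genes with a cluster, and 0 were called between genotypes in ileum. Of these, 1 was more than 1 above the other arrays of its genotype on both F09 and D09. This was so for 15 of 17 B cell genes and 0.933% of all clusters. The median differences were 0.30 on F09 and 0.73 on D09. *Gcsam* was at 5.97, 3.46 and 3.11 on F09, G09 and H09 in FIRE -/- ileum, against 2.95, 5.37 and 2.93 on C09, D09 and E09 in FIRE +/+ ileum. *Mybl1* was at 5.84, 3.96 and 3.95 in FIRE -/- ileum, against 4.53, 5.31 and 4.37 in FIRE +/+ ileum. Both were highest on F09 and D09. *Bcl6* was 0.49 and 0.73 above the other arrays of its genotype there, and the proliferation gene *Mki67* 0.23 and 0.077.

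The epithelial secretory lineages, which also use XBP1, had 0 of 9 goblet and Paneth cell genes called between genotypes in ileum. *Ang4*, a Paneth cell antimicrobial gene, was at 6.69, 8.92 and 8.81 on F09, G09 and H09 in FIRE -/- ileum, against 6.39, 7.03 and 8.79 on C09, D09 and E09 in FIRE +/+ ileum. F09 was thus the lowest FIRE -/- array for *Ang4*, as for *Jchain*, *Pigr* and *Ccl28*, but for *Ang4* C09 was lower still. *Clca1* was at 11.92 to 11.97 in FIRE -/- and 11.91 to 12.09 in FIRE +/+ ileum.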
